A study of Mus musculus with 36 samples.

Results

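Peroxiredoxin 2 (Prdx2, NCBI Gene ID 21672, chromosome 8 in the mouse reference gene table) was followed in whole brain of newborn mice of 3 lines. The arrays name probes by ID, and the rule took every probe whose ID number, after leading zeros were dropped, equals the Gene ID of Prdx2. It found 2 probes of 46116 on the array. As set out below, only the zero-padded one of the 2 can be read as Prdx2 from its number. Zero-padded numbers named 8127 genes on the array in all. Prdx2 was selected on the signal of its probe in the 3 lines of these same arrays, so its levels are given as a description, with no test.

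RNA came from brains taken at postnatal day 0.5 from A/J mice, from B6 mice and from a C10 congenic line, with 6 brains a line and 1 brain on each Illumina Sentrix Mouse-6 array. Both A/J and B6 are inbred strains. In the series text the congenic line is A.B6chr10. Read as such names usually are, this means that chromosome 10 material of B6 was placed on an A/J background. The sources used here do not give how far that material reaches, and Prdx2 lies on another chromosome. No treatment is named for any of the 3 groups. The titles number the arrays of each line as replicates of whole brain. Each was taken as the brain of a separate animal, which the titles do not state. The series also holds adult hippocampus, not analysed here.

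Peroxiredoxins are thiol peroxidases that reduce hydrogen peroxide with a reactive cysteine. Prdx2 is a cytosolic member of the typical 2-Cys class, whose oxidised form is returned to work by thioredoxin and whose over-oxidised form is repaired by sulfiredoxin. It is among the most abundant proteins of red blood cells and is well known in neurons.

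The region around the start of Prdx2 is shown with that of Prdx1, its close relative in the cytosol. The probe read as Prdx2 differed between lines in these arrays, and Prdx1 is the nearest measured comparison. Both regions come from RefSeq, assembly GRCm38.p6, which is the sequence of C57BL/6J. They therefore hold no A/J allele and show no difference between strains. Each run covers 250 bases before the annotated start and 50 after it, and capitals mark the letters ATAAAA. The Prdx2 window is chr8:84969372-84969671 on the + strand and that of Prdx1 is chr4:116685349-116685648 on the + strand.
Prdx2: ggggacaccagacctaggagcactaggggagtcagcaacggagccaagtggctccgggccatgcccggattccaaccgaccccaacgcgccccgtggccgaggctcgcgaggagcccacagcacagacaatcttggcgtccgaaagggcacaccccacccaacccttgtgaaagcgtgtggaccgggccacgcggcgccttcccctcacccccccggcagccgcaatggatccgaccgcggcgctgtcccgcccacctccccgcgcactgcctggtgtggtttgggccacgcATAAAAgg
Prdx1: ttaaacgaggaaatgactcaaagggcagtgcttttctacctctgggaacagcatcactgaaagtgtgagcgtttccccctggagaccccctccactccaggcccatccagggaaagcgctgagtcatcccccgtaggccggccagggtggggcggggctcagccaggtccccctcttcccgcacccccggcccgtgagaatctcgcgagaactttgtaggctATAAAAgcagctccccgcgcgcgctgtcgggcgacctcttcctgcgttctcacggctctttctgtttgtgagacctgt
The Prdx2 window had a GC content of 68.67% and that of Prdx1 60.67%. A few short motifs, picked with these sequences in view, were searched on both strands in 32851 promoters of the same length. ATAAAA lay 42 bases after the start in Prdx2 and before the start in Prdx1, and 18.47% of promoters held it. The TATA-box letters TATAAA, which overlap ATAAAA where an A follows, occurred in the Prdx1 window but not in that of Prdx2, against 13.62% of promoters. GGGCGG, the GC box, occurred once in each, against 35.66% of promoters. TGACNNNGC, the core of the antioxidant response element, occurred in the Prdx1 window and not in that of Prdx2, against 12.39% of promoters. GATAAG (7.44% of promoters), CCACACCC (3.56%) and CCAAT (37.41%) occurred in neither. These are matches of letters in 1 window and say nothing of binding.

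The probe whose ID carries the number with leading zeros, called the Prdx2 probe from here on, was bright in all B6 brains and dim in the others. The Prdx2 levels and differences below rest on this probe alone. Its sequence was not in the sources used here, so whether strain variants lie under it was not tested. The deposited signal, a background-subtracted brightness in arbitrary units, was 4688.9, 4553.5, 4840.7, 4719.7, 4818.2 and 4838.3 in B6 brains 1 to 6. In A/J brains 1 to 6 it was 232.3, 160.2, 123.3, 132.4, 169 and 130.8. In C10 congenic brains 1 to 6 it was 181.1, 154.3, 135.4, 64.2, 121 and 125.2. Every B6 brain lay far above every brain of the other lines, while the A/J and congenic ranges overlapped between 123.3 and 181.1. The mean was 4743 ± 112.8 in B6 (SD, n = 6), 158 ± 40.6 in A/J (SD, n = 6) and 130.2 ± 39.2 in the congenic line (SD, n = 6). The deposited means stood at 30.02 to 1 for B6 over A/J and 36.43 to 1 for B6 over the congenic line. A/J over the congenic line was 1.214 to 1, and that gap is smaller than the SD within either line.

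The low level in A/J and the congenic line was still a measured one in nearly every brain. A probe counts as detected at a detection p under 0.01, and the Prdx2 probe was detected in 6 of 6 A/J brains, 6 of 6 B6 brains and 5 of 6 congenic brains. The exception was congenic brain 4, with a detection p of 0.0291, which also held the lowest signal of all 18. Between 23 and 42 beads stood behind each value, and the SD over beads was 13.5 to 25.6 in A/J, 102.6 to 210.3 in B6 and 21.8 to 29.1 in the congenic line. The coefficient of variation between brains was 2.38% in B6, 25.7% in A/J and 30.1% in the congenic line. The highest of the A/J brains was brain 1, and the lowest of the congenic brains was brain 4.

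**Figure D1:**
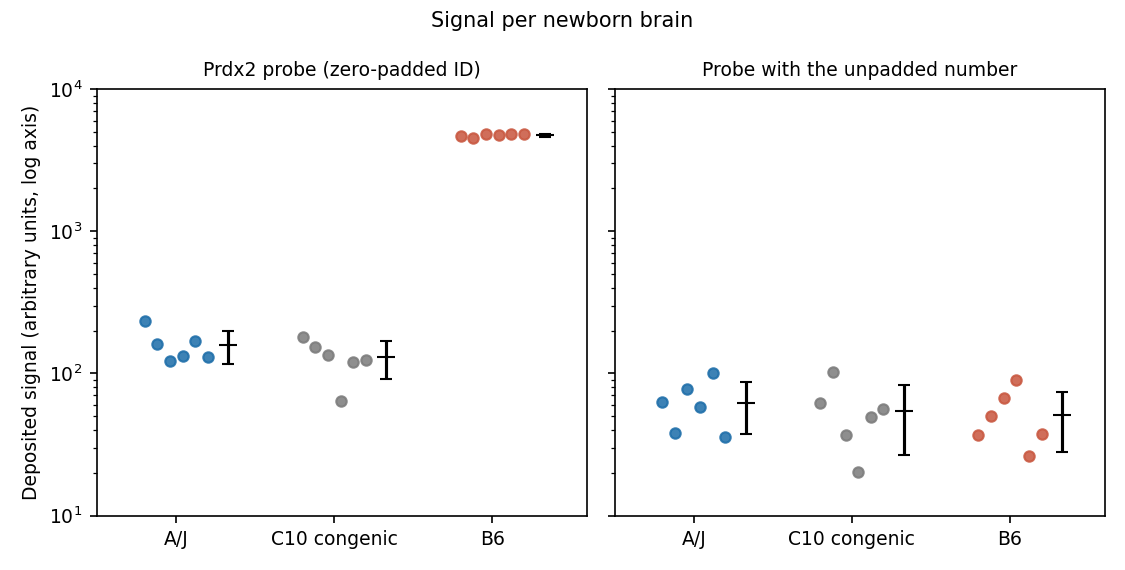
Deposited signal (arbitrary units, log axis) of both probes that carry the Prdx2 number in each of 18 newborn brains; a point is a brain, and the bar beside each line is the mean with its SD (n = 6). On the left the 6 B6 brains sit between 4553.5 and 4840.7, above every A/J and C10 congenic brain; on the right the lines overlap.

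The other probe carries the same number without leading zeros, and it did not follow the first. Its signal was 35.9 to 101.1 in A/J, 26.1 to 89.6 in B6 and 20.3 to 102.4 in the congenic line, so all 3 lines overlapped. Its means were 62.3 ± 24.7, 51.2 ± 23.4 and 54.7 ± 27.8 (SD, n = 6 each). It was detected in 1 A/J brain, no B6 brain and 1 congenic brain. Fitted without a filter on dim probes, it stood at −0.12 for B6 minus A/J on the log2 scale (SE 0.152).

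Whether the second probe measures Prdx2 cannot be read from its number. Of 11897 zero-padded numbers of 5 or 6 digits, 82.6% were mouse Gene IDs, against 35.1% to 46% after 1 to 50 was added to each. Of 17496 unpadded numbers, 10.6% were Gene IDs, against 10.3% to 10.8% after the same shift. For 802 numbers printed in both forms, the levels of both probes had r = −0.0125 across numbers, which share the same arrays. The 1500 genes with 2 zero-padded probes had r = 0.392 across genes. Only zero-padded numbers are therefore read as gene names below, and the unpadded probe is left without a gene.

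To set Prdx2 beside other genes, all arrays were fitted together as log2 of the signal shifted by 75, with quantile normalization, over 15883 probes detected in at least 6 of the 18 brains. On this scale the Prdx2 probe was 4.39 higher in B6 than in A/J (SE 0.125), a 20.9-fold difference of the shifted signal, and stood at −4.58 for the congenic line minus B6 (SE 0.125). The congenic line minus A/J was −0.19 (SE 0.125), under the pooled within-line SD of 0.221. By size, Prdx2 ranked 7 among 15883 probes both for B6 minus A/J and for the congenic line minus B6, and 4518 for the congenic line minus A/J. A difference of 1 or more on this scale was met by 341 probes for B6 minus A/J, 351 for the congenic line minus B6 and 23 for the congenic line minus A/J.

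Leaving out each brain in turn moved the Prdx2 differences little. B6 minus A/J stayed between 4.34 and 4.47 and the congenic line minus B6 between −4.65 and −4.47. The congenic line minus A/J ranged from −0.26 to −0.08, the last of these without congenic brain 4. A/J brain 6 stood apart in 1 respect. The signal of Xist, the RNA made from the inactive X chromosome, was 7076.6 there and at most 23 in the other 17 brains. Y-linked Eif2s3y was −7.3 there and at least 1496.8 in the others. By these signals that brain reads as female and the others as male, and the titles give no sex. Without that brain B6 minus A/J for Prdx2 was 4.35 (SE 0.132).

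Differences with a Benjamini-Hochberg adjusted p under 0.05 in limma's moderated test over all 15883 probes are called below. That held for 16.1% of all probes for B6 minus A/J, of which 8.1% of all probes were higher and 8.01% lower in B6. It held for 12.1% for the congenic line minus B6 (5.99% higher, 6.09% lower) and 0.932% for the congenic line minus A/J (0.441% higher, 0.491% lower). The comparisons share samples in pairs, since each line enters 2 of them. As a check of the tissue, 12 of the 14 neuron markers with a numbered probe were kept, among them growth-cone Gap43 and immature-neuron Dcx, at mean signals of 23671 and 14950 in A/J.

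None of the other peroxiredoxins with a kept probe was called in any of the 3 comparisons. Of 6 listed genes 4 had a numbered probe and 3 a kept one, so the count of 0 rests on Prdx1, Prdx5 and Prdx6. Their unadjusted limma p were at least 0.462. Prdx3 and Prdx4, the mitochondrial and the endoplasmic reticulum members, had no probe named here, and the 3 probes of Prdx6b were too dim to keep.

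Prdx1, the closest cytosolic relative of Prdx2, had signals of 8537.6, 10268.35 and 11879.1 in A/J (lowest, median and highest of 6 brains). The same values were 6884.5, 9799.35 and 11531.1 in B6 and 7859.8, 10059.8 and 11654 in the congenic line. The 3 lines overlapped throughout. B6 minus A/J was −0.09 (SE 0.124, 95% interval −0.34 to 0.17, limma adjusted p = 0.701), and the congenic line minus A/J was −0.09 (limma adjusted p = 0.775). The interval is far narrower than the difference described for Prdx2.

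Prdx5, an atypical 2-Cys peroxiredoxin of mitochondria, peroxisomes and cytosol, had 2 zero-padded probes and both were bright. The brighter gave 8943 ± 1290 in A/J, 8414 ± 497 in B6 and 8484 ± 673 in the congenic line (SD, n = 6 each). Its B6 minus A/J difference was −0.06 (SE 0.098, 95% interval −0.27 to 0.14, limma adjusted p = 0.725). The other probe gave means of 8354, 8548 and 8890 and a difference of 0.05 (limma adjusted p = 0.786), so the 2 probes differed in sign by amounts smaller than their errors.

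Prdx6, the 1-Cys member that also has phospholipase activity, gave 867 ± 177 in A/J, 897 ± 141 in B6 and 854 ± 243 in the congenic line (SD, n = 6 each). B6 minus A/J was 0.05 (SE 0.147, 95% interval −0.25 to 0.36, limma adjusted p = 0.852). Its second probe was too dim to keep, with means of 74.7, 65.9 and 63.3.

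**Figure D2:**
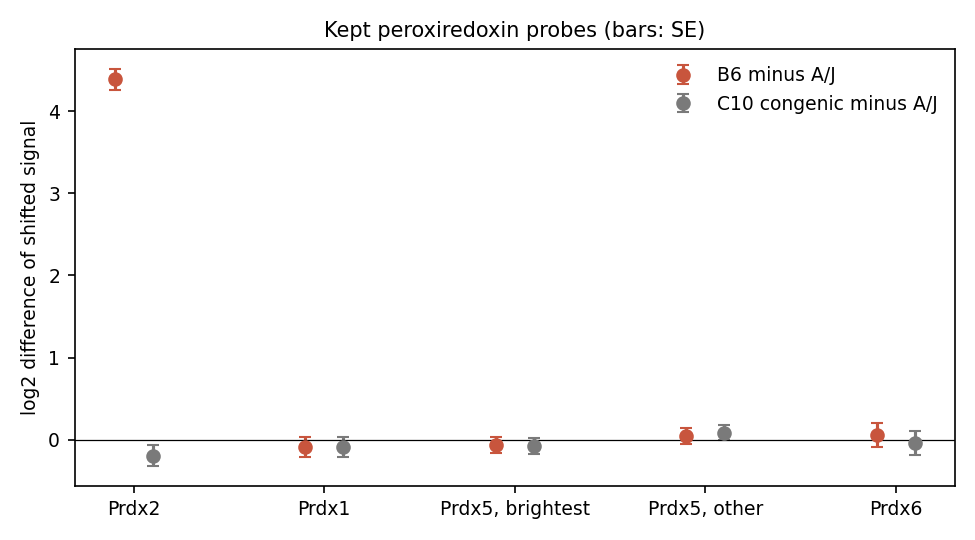
Difference in log2 shifted signal for B6 minus A/J and C10 congenic minus A/J, for the Prdx2 probe and the 4 kept probes of other peroxiredoxins; points are fitted differences and bars their SE. Prdx2 stands at 4.39 for B6 minus A/J, and every other point lies near 0.

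The proteins that serve Prdx2 and the parallel peroxide defences were followed in 4 lists of 105 genes, of which 43 had a numbered probe and 30 a kept one. For B6 minus A/J 3 genes were called higher and 6 lower, which is 9 of 30 kept genes. Over all kept probes 8.1% were called higher and 8.01% lower. The median difference of the 30 was −0.07, against −0.02 over all kept probes. For the congenic line minus B6 1 was called higher and 1 lower (median −0.03, against 0.02 over all kept probes). For the congenic line minus A/J none of the 30 was called by limma (median −0.13, against −0.0001 over all kept probes), and 7 had an unadjusted p under 0.05. The shares called over all kept probes were 12.1% for the congenic line minus B6 and 0.932% for the congenic line minus A/J. Without A/J brain 1 the 9 called for B6 minus A/J became 5.

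In the glutathione list, Glrx rose most in B6. It encodes glutaredoxin 1, which uses glutathione to reduce mixed disulfides on proteins. Its signals were 494.2, 664.65 and 796.2 in A/J (lowest, median, highest), 1583, 2292.9 and 2757 in B6 and 464.8, 596.9 and 747.5 in the congenic line. All B6 brains lay above all other brains, and the A/J and congenic brains overlapped. B6 minus A/J was 1.69 (SE 0.134, 95% interval 1.41 to 1.96, limma adjusted p = 7.13e-10) and the congenic line minus B6 was −1.79 (limma adjusted p = 2.4e-10). The congenic line minus A/J was −0.10 (limma adjusted p = 0.754).

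Glrx2, its mitochondrial relative, went the other way between the same lines. It fell by 0.51 in B6 against A/J (SE 0.11, limma adjusted p = 0.00194), with means of 2940 ± 308 in A/J, 2048 ± 257 in B6 and 2688 ± 360 in congenic brains (SD, n = 6 each). Its level was 0.37 higher in the congenic line than in B6 (limma adjusted p = 0.0261). That second call did not pass without B6 brain 1 (adjusted p = 0.0542), B6 brain 6 (0.0556) or congenic brain 1 (0.0511), 2 (0.0615) or 3 (0.0526). Gstk1, a glutathione transferase of mitochondria and peroxisomes, rose by 0.49 in B6 against A/J (SE 0.111, limma adjusted p = 0.00301), with means of 369 ± 71.5 and 542 ± 57.6 (SD, n = 6 each).

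Gstm1, a cytosolic glutathione transferase, fell by 0.39 (limma adjusted p = 0.026). In all, 2 of the 12 kept glutathione genes were called higher and 2 lower for B6 minus A/J. Over all kept probes the shares were 8.1% and 8.01%. Gclm, the modifier subunit of the enzyme that starts glutathione synthesis, stood at −0.08 (limma adjusted p = 0.704).

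In the thioredoxin list, which holds the direct electron supply of Prdx2, 1 of 8 kept genes was called higher and 1 lower for B6 minus A/J. Over all kept probes the shares were 8.1% and 8.01%. Thioredoxin itself and its reductases had no numbered probe. Srxn1, the sulfiredoxin that repairs over-oxidised 2-Cys peroxiredoxins, had signals of 340.6, 410.6 and 463.7 in A/J and 354.3, 404.6 and 493.5 in B6 (lowest, median, highest), and 285.4, 328.3 and 527.3 in the congenic line. These values are of the brightest of its 3 kept probes, and the others are not described here. The lines overlapped, and B6 minus A/J was 0.04 (SE 0.118, limma adjusted p = 0.856).

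Txndc5, a protein disulfide isomerase of the endoplasmic reticulum, fell by 0.48 in B6 (SE 0.122, limma adjusted p = 0.00727). Nxn, nucleoredoxin, rose by 0.38 (SE 0.111, limma adjusted p = 0.0216). Both are thioredoxin-fold proteins rather than thioredoxin itself. Txnl4a, a thioredoxin-fold protein of the spliceosome, is given because its 2 kept probes disagreed, and it was chosen after its values were seen. The brighter probe, which represents the gene, had means of 1854, 2175 and 1824 in A/J, B6 and the congenic line and was not called (0.24 for B6 minus A/J, limma adjusted p = 0.25). The dimmer one had 59.7 ± 13.2 in A/J, detected in no brain, 485 ± 88.5 in B6, detected in all 6, and 73.3 ± 20.3 in congenic brains (SD, n = 6 each). It passed the filter on dim probes through the B6 brains, where it is high, so its difference is given with no test.

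Of the other peroxide and superoxide defences, 3 of 8 kept genes were called lower in B6 than in A/J and none higher. Over all kept probes 8.01% were called lower and 8.1% higher. Bach1, a repressor of antioxidant and haem genes, fell by 0.68 (SE 0.177, limma adjusted p = 0.00936), from 667 ± 75 to 412 ± 146 (SD, n = 6 each). Mt1, a metallothionein that binds zinc and copper, fell by 0.46 (limma adjusted p = 0.0178). Sod1, which turns superoxide into hydrogen peroxide in the cytosol, fell by 0.36 (limma adjusted p = 0.0263). Ferritin subunits Fth1 and Ftl1 stood at −0.06 and −0.06 and were not called (limma adjusted p = 0.786 and 0.781). Among the sources of hydrogen peroxide 2 genes were kept and neither was called, of which Ero1b, an oxidase of the endoplasmic reticulum, stood at 0.04 (limma adjusted p = 0.845).

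Some of these calls turned on single brains. Without A/J brain 1 the limma adjusted p was 0.0556 for Nxn, 0.0737 for Gstm1, 0.0526 for Mt1 and 0.0603 for Sod1. Gstm1 also missed the threshold without A/J brain 2 (0.0548) and without B6 brain 2 (0.0507), 3 (0.0509) or 4 (0.0577). Sod1 also missed it without A/J brain 6 (0.0527) and without B6 brain 1 (0.0507), 5 (0.0591) or 6 (0.0746). Glrx, Glrx2, Gstk1, Txndc5 and Bach1 remained called for B6 minus A/J under all 24 alternatives run, with the highest adjusted p among them at 0.0323 for Bach1.

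**Figure D3:**
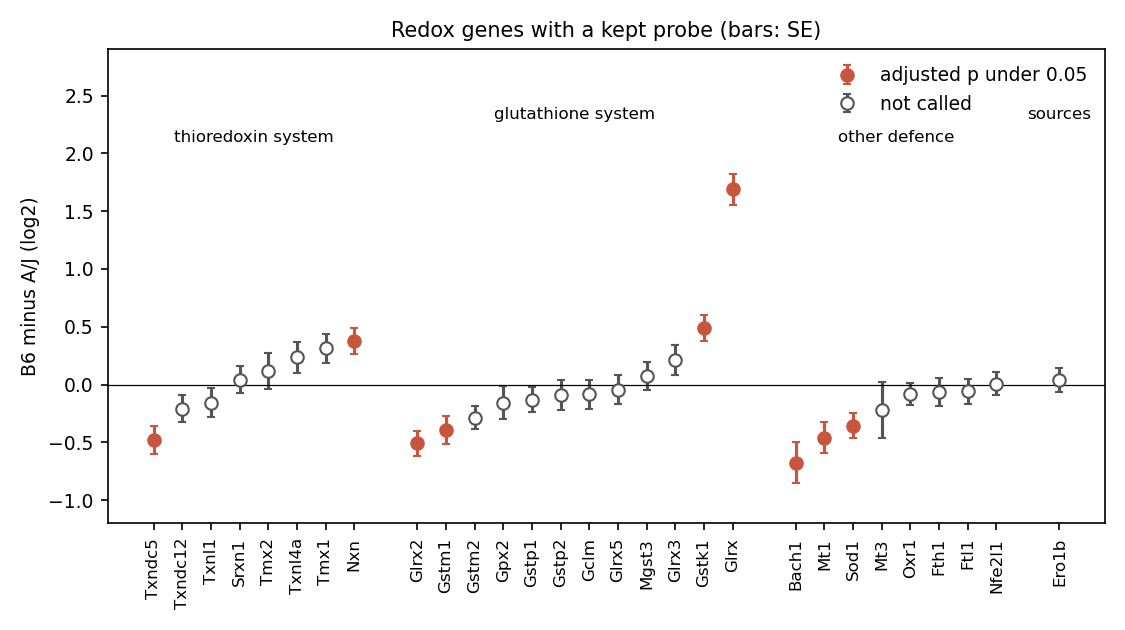
B6 minus A/J in log2 shifted signal for 29 of the 30 kept genes of the 4 redox lists, ordered by list and by size; points are fitted differences, bars SE, and filled points have a limma adjusted p under 0.05. Glrx, at 1.69, is the highest of the 9 filled points, 6 of which lie below 0.

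Red blood cells carry much Prdx2 protein, so their markers are given beside its signal. In whole tissue, fewer cells of a type and less RNA per cell cannot be told apart. Of 33 listed red cell markers 8 had a numbered probe and 5 a kept one, while Hba-x, Hbb-y and Car1 were too dim to keep. The summed deposited signal of the 5 was 11925 to 25270 in B6 (median 15568), 35487 to 55546 in A/J (median 42530) and 26216 to 52680 in the congenic line (median 41642). The sum was lower in B6, and the B6 brains lay below all other brains. It rests mainly on the globins Hba-a1 and Hbb-b2, the brightest of the 5 in A/J. Hbb-b1 went the other way and Sptb and Ank1 were not called. Whether the sum follows red cell content was therefore not tested.

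Hba-a1, an adult alpha globin, fell by 1.38 in B6 against A/J (limma adjusted p = 3.69e-05), from 31117 ± 5113 to 12450 ± 4675 (SD, n = 6 each). The beta globins Hbb-b1 and Hbb-b2 went in opposite directions. Hbb-b1 was 149 ± 42.1 in A/J and 1618 ± 382 in B6 (SD, n = 6 each), a difference of 2.91 (limma adjusted p = 3.76e-13). Hbb-b2 was 10796 ± 2023 and 119 ± 21.1 (SD, n = 6 each), a difference of −5.79 (limma adjusted p = 6.64e-21). These 2 genes are closely related. How their probes tell them apart, and whether they match the beta globin genes of each line equally, was not tested. Hbb-bs and Hbb-bt, also on the list, had no numbered probe. Spectrin Sptb (0.21, limma adjusted p = 0.299) and ankyrin Ank1 (−0.22, limma adjusted p = 0.259), membrane skeleton genes of red cells that brain also expresses, were not called.

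Markers of other brain cells moved little. Of 12 kept neuron markers only Rbfox3, the NeuN antigen, was called for B6 minus A/J (0.37, limma adjusted p = 0.0428), and only Eno2, neuronal enolase, for the congenic line minus B6 (0.37, limma adjusted p = 0.00942). The Rbfox3 call missed the threshold without A/J brain 1, 3, 5 or 6 or B6 brain 1, 2, 3, 4 or 5, with adjusted p from 0.0524 to 0.117. Of 3 kept microglia markers Csf1r, the receptor for colony-stimulating factor 1, was called for the congenic line minus B6 (0.56, limma adjusted p = 0.0112). No kept marker of astrocytes and radial glia (3), the oligodendrocyte lineage (1), vessels (1) or choroid plexus (2) was called in any comparison of this fit. With array weights 1 astrocyte and radial glia marker and 1 choroid plexus marker were called for B6 minus A/J. With no filter on dim probes 1 astrocyte and radial glia marker was called there. Leaving out 1 brain gave 0 to 1 astrocyte and radial glia markers for B6 minus A/J and for the congenic line minus B6. Over all kept probes 16.1% were called for B6 minus A/J and 12.1% for the congenic line minus B6. The part of any cell type in the Prdx2 signal was not tested.

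By their brightest kept probes, the genes beside Prdx2 on chromosome 8 did not share its pattern. In the order of the reference gene table, 15 genes on each side give 30, of which 11 had a numbered probe and 7 a kept one. For B6 minus A/J none was called higher and 1 lower (median −0.14, against −0.02 over all kept probes). Over all kept probes 8.1% were called higher and 8.01% lower. For the congenic line minus B6 1 was higher and 1 lower, and for the congenic line minus A/J none was called by limma, with none at an unadjusted p under 0.05. In those comparisons 12.1% and 0.932% of all kept probes were called. Rnaseh2a, a subunit of the enzyme that cuts RNA from RNA-DNA hybrids, is next to Prdx2 and had means of 365 ± 38.3 in A/J, 308 ± 68 in B6 and 327 ± 51.3 in the congenic line (SD, n = 6 each). Its B6 minus A/J difference was −0.21 (limma adjusted p = 0.231). Junb, next on the other side, had a probe too dim to keep.

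Wdr83, a WD-repeat scaffold protein 13 genes from Prdx2, fell by 0.52 in B6 against A/J (SE 0.113, limma adjusted p = 0.00201), with means of 1146 ± 169 in A/J, 776 ± 126 in B6 and 1068 ± 113 in congenic brains (SD, n = 6 each). Its level was 0.43 higher in the congenic line than in B6 (limma adjusted p = 0.0122). Man2b1, a lysosomal alpha-mannosidase, stood at 0.08 for B6 minus A/J (limma adjusted p = 0.766) and Farsa, a subunit of phenylalanyl-tRNA synthetase, at −0.19 (limma adjusted p = 0.244). The Farsa value is that of the brighter of its 2 kept probes. Its other kept probe was called for B6 minus A/J and for the congenic line minus B6, with a size and direction not given here.

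**Figure D4:**
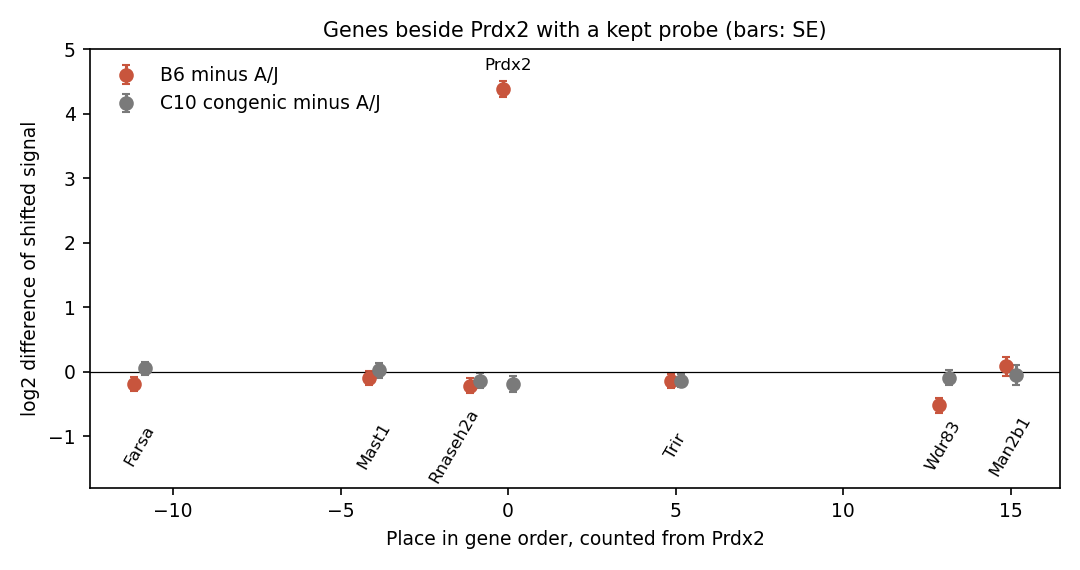
Difference in log2 shifted signal for Prdx2 and 6 of the genes with a kept probe among 15 on each side of it on chromosome 8; the horizontal axis is the place in gene order, not a distance, points are fitted differences and bars SE. Prdx2 lies at 4.39 for B6 minus A/J, and Man2b1 at 0.08 is the highest of the 6 others, each drawn by its brightest kept probe.

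Of the 8 named genes whose profiles over the 18 brains came nearest to that of Prdx2, 7 are described here, and they lay on 7 other chromosomes. Likeness was the root mean square distance between profiles of log2 shifted signal, each centred on its own mean, with 1 probe a gene over 4147 genes. A flat profile would lie at 2.12 from Prdx2. The 7 were Tmem68 (0.523), Zcchc3 (0.557), Asap2 (0.623), Emb (0.658), Cox7a2l (0.687), Atrnl1 (0.727) and Rpl29 (0.729). Probes without a name, or second probes of named genes, came between them: 5 lay nearer than Tmem68 and 15 nearer than Rpl29. All 7 were chosen for this likeness, so their differences are a description.

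Tmem68, a transmembrane protein, had signals of 2247.3, 2464.7 and 2650.8 in B6 (lowest, median, highest) and was detected in no A/J or congenic brain. Its B6 signal was at least 15.7-fold that of A/J, taking for each A/J brain the higher of its own signal and the lowest detected one, on the shifted scale. Zcchc3, a zinc finger protein, was detected in all B6 brains at 873 ± 68.6 (SD, n = 6) and in no other brain, at least 5.87-fold above A/J. Its 2 other probes were too dim to keep and stood at −0.10 and −0.01 for B6 minus A/J. Asap2, a GTPase-activating protein for Arf proteins, was at least 8.86-fold higher in B6 than in A/J, Emb, the adhesion glycoprotein embigin, at least 3.31-fold, Atrnl1, attractin-like 1, at least 4.49-fold and the ribosomal protein gene Rpl29 at least 6.58-fold. Each of these 4 was detected in every B6 brain and in no brain of the other lines.

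Cox7a2l, an assembly factor of respiratory chain supercomplexes, was the only one of these 7 that, like Prdx2, was also measured in the low lines. Its signal was 161.2, 338.5 and 531.6 in A/J, 2634.2, 3439.15 and 4386.9 in B6 and 228.7, 327.8 and 406.4 in the congenic line (lowest, median, highest), and it was detected in all 18 brains. It was 3.14 higher in B6 than in A/J (SE 0.174) and −0.0009 for the congenic line minus A/J. The B6 brains lay above all others and the A/J and congenic brains overlapped, as for Prdx2.

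**Figure D5:**
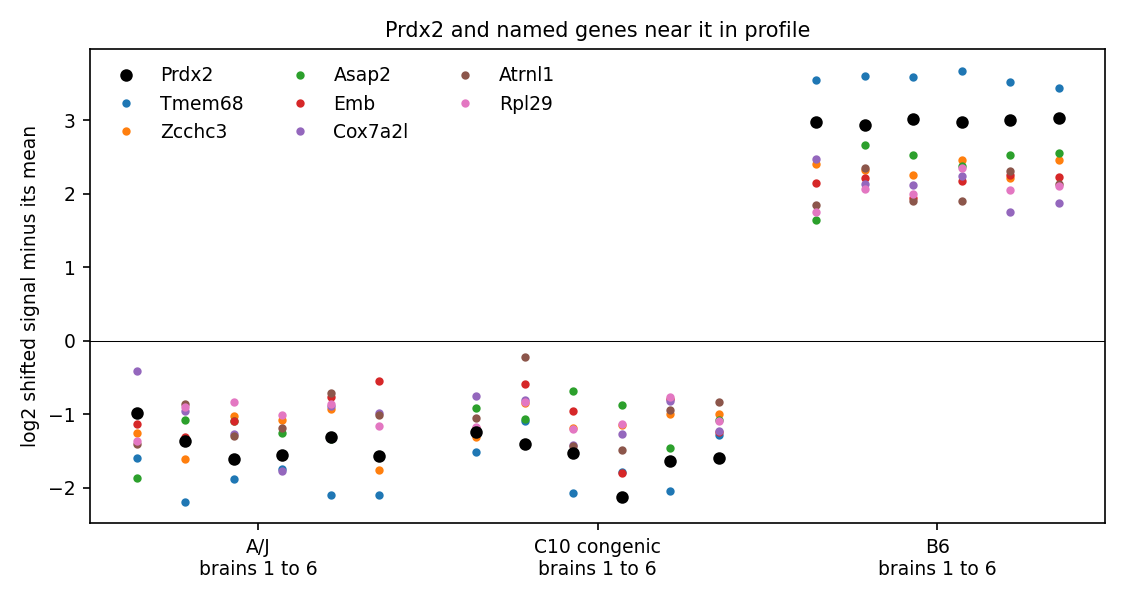
Log2 shifted signal of Prdx2 (black) and 7 of the 8 named genes nearest to it in profile, each minus its own mean over the 18 brains, by line and brain; a point is 1 gene in 1 brain. All the genes drawn are high in the 6 B6 brains and low in the 12 others, with Asap2 lowest among them in B6 brain 1.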

How the data were processed

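Newborn whole brain was profiled on 18 Sentrix Mouse-6 arrays, 6 each of A/J, B6 and a C10 congenic line, grouped by their titles. The deposited signal is a background-subtracted intensity from BeadStudio, per the submitters' processing notes. Per the file headers each array also has a detection score, deposited as a fraction whose complement was read as a detection p, an SD of intensity over beads and a bead number. The sources used here do not give the software version, any normalization step or a genome build. The quartiles of the deposited signal were nearly equal on all arrays (upper quartile 183.6 to 184.4), with 14415 to 15737 of 46116 probes detected per array. No 2 arrays held identical values. The number of arrays limits the precision.

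Signals were shifted by 75 (the lowest was −59), taken to log2 and quantile normalized. The shift shrinks differences of dim probes. 560 control probes were left out. Probes detected in at least 6 arrays were kept (15883), and fitted with limma 3.58.1 in R 4.3.3 (lmFit, eBayes, 1 coefficient per line, no block), with two-sided p adjusted by the Benjamini-Hochberg method. The fit was tested on simulated data. Zero-padded ID numbers named 9832 probes and 4147 kept genes, each represented by its brightest kept probe; this naming had been planned as an alternative. Named in the text were all Prdx2 probes, other peroxiredoxins, called members of the lists and of the 15 genes on each side (at most 8 a list), kept red cell markers, the 8 genes nearest in profile, and a few uncalled members for context; a few genes that this rule names are not reported here. The members and lists were chosen with earlier results of these data known. Alternatives were the shift, normalization, filter, array weights, replicate number as a block, probe choice, naming and leaving out each brain.

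Brains of the same number in different lines deviated together only weakly, so the numbers were not taken to pair them. Their median correlation was 0.0778, against −0.0385 for brains of different numbers.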

Additional observations from a re-analysis of the deposited data

Results flagged for a closer look

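For the named genes, each line's 6 brains were searched for a brain whose gap to its nearest neighbour, over the whole range of the line, was above the 95% critical value of Dixon's test. Of 102 groups of 6 brains, 9 held such a brain, and chance gives about 1 in 20. The Prdx2 probe gave none.

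The values that stood apart were these. B6 brain 1 was lowest for Asap2 at 777.9 (next 1340.5), lowest for Csf1r at 105.8, lowest for Txnl4a at 1519.9 and highest for Mt1 at 7490.4. B6 brain 4 was highest for Gstk1 at 658. C10 congenic brain 5 was highest for Prdx6 at 1327.2 (next 871.3) and for Csf1r at 568.5. C10 congenic brain 4, which had the lowest Prdx2 signal, was lowest for Glrx2 at 1973.8. A/J brain 6 was highest for Xist at 7076.6, against 19.3 in the next A/J brain, and its Prdx2 signal of 130.8 lay within the range of the line.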

How the results depend on the processing

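Prdx2 kept its direction for B6 minus A/J and for the congenic line minus B6 under every alternative run. With a floor of 16 in place of the shift these were 4.94 and −5.25 (SE 0.194). With the replicate number as a block they were 4.39 and −4.58 (SE 0.112). The numbers showed at most weak pairing. Same-numbered brains had a median correlation of 0.0778, against −0.0385 for other brains, and 4 of 18 arrays correlated best with their own number. Under the block 2721, 224 and 2075 probes were called for B6 minus A/J, the congenic line minus A/J and the congenic line minus B6. Array weights called 4871 probes for B6 minus A/J and 971 for the congenic line minus A/J, 5 genes beside Prdx2 for B6 minus A/J, and 4 redox genes each for the congenic line minus A/J and minus B6 (4 over redox and marker lists for the former). For the congenic line minus A/J, 148 probes became 1 with no filter on dim probes and 88 with the floor. With no filter 1 redox gene was called for the congenic line minus B6. Counting any kept probe gave 2 genes beside Prdx2 for B6 minus A/J, and reading every ID number as a Gene ID, chosen after seeing the data, gave 1 list gene for the congenic line minus A/J. The cause of these shifts was not tested. Leaving out 1 brain gave 17 to 316 called probes for the congenic line minus A/J (17 without A/J brain 1, 316 without B6 brain 4), 5 to 10, 0 to 1 and 1 to 3 redox genes and 8 to 15, 0 to 1 and 6 to 8 genes of the redox and marker lists in the order above, and 1 to 2 genes beside Prdx2 for B6 minus A/J and for the congenic line minus B6. No other peroxiredoxin was called under any alternative. Of 23 called differences of named genes 16 stayed called throughout and 0 reversed; among those lost with no filter were Nxn, Gstm1, Mt1, Sod1, Rbfox3 and the Glrx2 difference from the congenic line, and Rbfox3 also with array weights and with the floor. Signals near background, as of Prdx2 in congenic brain 4, limit small differences.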
